A study of Mus musculus with 59 samples.

Results

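Wild-type mice that had received lithium were compared with wild-type mice that had received vehicle, by RNA sequencing of the prefrontal cortex on postnatal day 25. The comparison held 20 of the 59 libraries of the study: 5 females and 5 males on lithium against 5 females and 5 males on vehicle, chosen by their labels, with sex kept as a block. All 20 mice were labelled wild-type, on the C57BL/6J strain. Drug or vehicle reached the pups from postnatal day 3 to 24 through the milk of the dam, so the pups of a litter shared their exposure. The labels give neither litters, dose nor the composition of the vehicle, and p-values here measure the spread between mice as deposited. Further groups used below were 20 mice heterozygous for the Dyrk1a I48X allele, a stop mutation in a protein kinase gene, given lithium or vehicle on the same schedule (5 of each sex and treatment), and 9 wild-type mice given fluoxetine, a serotonin reuptake inhibitor. Heterozygous mice given fluoxetine, 5 females and 5 males, entered no comparison but were part of the fit that estimates the spread. Heterozygous and wild-type pups may have shared litters.

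Lithium is a mood stabiliser. The lithium ion inhibits glycogen synthase kinase 3 (GSK3), which marks beta-catenin for destruction in the Wnt pathway, and it inhibits inositol monophosphatase and related phosphatases that recycle inositol for phosphoinositide signalling. In cortical neurons both pathways meet the signalling that turns on immediate early genes, which are transcribed within minutes of synaptic activity.

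Library totals ran from 24391022 to 31329276 counts in the 20 libraries. Every value was a whole read after the authors' scaling was undone, within a tolerance of 0.01 reads, and no pair of libraries was identical. Markers of cortical excitatory neurons were high in all 20 libraries, with a summed normalised count from 72524 to 93183 with vehicle and from 78476 to 92863 with lithium. The libraries also differed widely within the groups. Markers of the olfactory bulb, which adjoins the frontal cortex, summed to 2648 to 34634 with vehicle and to 2896 to 21125 with lithium, and the first principal component (22.2% of the variance) ran along them. None of the 17 bulb markers tested passed the test for lithium, but 15 were higher on lithium. Their median log2 fold change was -0.26 in females and 0.62 in males. The mean over these markers, in log2 units from the mean of all libraries, had a median of -2.12 in vehicle males and -1.18 in lithium males. Choroid plexus and ependymal markers summed to 409.6 to 4132 with vehicle and to 452 to 817 with lithium, and myelinating oligodendrocyte markers to 79437 to 173194 and to 110051 to 157600.

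A total of 29 of 17901 genes (0.162%) passed limma's test at a Benjamini-Hochberg adjusted p under 0.05, which is called "rose" or "fell" here: 14 rose (0.0782%) and 15 fell (0.0838%). The changes were small, and 26 of the 29 were under 1.5-fold. Among the genes that rose were Sox18, a transcription factor of endothelial cells, the glucocorticoid-inducible repressor Zbtb16 and several nuclear RNA-processing genes. Those that fell included the chemokine scavenger receptor Ackr3, the lactate transporter Slc16a1, the kinase Dyrk3, the glial transcription factor Sox8 and Ctnnb1, which encodes beta-catenin. All 29 had the same direction in females and males. The choice of genes favours this, because the effect tested is the mean of the female and male effects. All 29 also had the same direction in the heterozygous mice, which played no part in that choice beyond the estimate of the spread. Bulk tissue cannot tell fewer cells of a type from less RNA per cell.

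The number of genes called depended on the libraries and settings of the fit. It was 61 when only the 20 libraries entered (25 of the 29 among them), 84 without 2 heterozygous fluoxetine males that stand apart, 67 with the olfactory bulb marker level as a covariate and 209 with weights that lower the influence of noisy libraries, each of the last 3 holding all 29. Leaving out 1 of the 20 libraries gave 13 to 33 calls. The count moved by over 1.5 times without vehicle male 3 (13), lithium male 2 (16), vehicle female 2 (16), lithium female 2 (18) or lithium female 3 (18). The 12 genes of smallest p, from Ackr3 to Tmem252, were called in each of the 20 leave-one-out fits. Of the other named genes, Tnfaip1 and Fndc3b were called in 19 of the 20, Mterf1b in 17, Suv39h1 in 16, Banp in 15, Ctnnb1 in 12, Zbtb16 and Srrm3 in 11, Plekhg4 and Pnck in 9, Wipf3 in 8, Map10 and Zfp189 in 7, Phf13 and Nrde2 in 6 and Rere in 3. Rere was also not called with edgeR, TMM or quantile normalisation, Zfp189 with edgeR or quantile normalisation, Nrde2 with edgeR, and Phf13, Srrm3 and Ctnnb1 with quantile normalisation. Map10 and Nrde2 were not called with the striatal marker covariate or with only the 20 libraries, Wipf3 with that covariate, and Zbtb16 with only the 20 libraries.

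The gene of smallest p was Ackr3 (chr1:90203980-90216751 in GRCm38), an atypical receptor that removes the chemokine CXCL12 from the space around cells. Its normalised count was 429, 421, 481, 413 and 495 in the 5 vehicle females and 398, 415, 415, 429 and 460.4 in the 5 vehicle males. Lithium females had 389, 378, 298, 343 and 285, and lithium males had 327, 324, 371, 315 and 295. Every lithium mouse lay below every vehicle mouse. The fitted mean was 23.8% lower, a log2 fold change of -0.39 ± 0.06 (SE, adjusted p = 5.77e-04).

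Sox18 (chr2:181669836-181671640), a transcription factor of vascular and lymphatic endothelium, had counts of 101, 105, 125, 107 and 128 in vehicle females and 132, 112, 154, 111 and 124 in vehicle males. With lithium the counts were 161, 197, 188, 202 and 183 in females and 149, 184, 216, 153 and 161 in males. The groups overlapped only through vehicle male 3, and the fitted mean was 49.3% higher, a log2 fold change of 0.58 ± 0.10 (SE, adjusted p = 0.00236). Of the 28 endothelial and mural markers tested none passed, 5 of 28 were above 0 and their median log2 fold change was -0.04, against 0.0031 over all genes. That median was 0.03 in females and -0.09 in males. The endothelial junction gene Cldn5 had -0.17 ± 0.09 and the endothelial adhesion gene Pecam1 -0.10 ± 0.07 (log2 fold change ± SE).

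Slc16a1 (chr3:104638668-104658462) encodes the monocarboxylate transporter MCT1, which carries lactate and ketone bodies across endothelial and glial membranes. Vehicle females had 1768, 1655, 1662, 1609.5 and 1663 and vehicle males 2419, 1934, 1972, 1838 and 1712 normalised counts. Lithium females had 1637, 1397, 1520.5, 1417 and 1289, and lithium males had 1540.3, 1453, 1341, 1442 and 1465. A single lithium female lay above the lowest vehicle mouse, and vehicle male 1 was the highest of the 20. It fell, with a log2 fold change of -0.32 ± 0.06 (SE, adjusted p = 0.00618). Of the other 37 genes of lactate and glucose metabolism tested, none passed. The proton-linked lactate exporter Slc16a3 had -0.27 ± 0.12 and the glycolytic enzyme Eno2 0.08 ± 0.03.

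Sox8 (chr17:25565892-25570686), a transcription factor of oligodendrocyte precursors and other glia, was between 946 and 1079 (median 998) with vehicle and between 758 and 984 (median 826) with lithium. The fitted mean was 15.6% lower and the log2 fold change -0.24 ± 0.05 (SE, adjusted p = 0.00651). Exons of Sox8 overlap those of a predicted gene on the opposite strand, and the strand setting of the quantification is not given in the sources used here. It is in both oligodendrocyte lists and was the only member of either to pass the test. Of the 17 precursor markers 7 were above 0, with a median of -0.02, and of the 29 myelinating markers 22 were, with a median of 0.02. Related Sox10 had -0.10 ± 0.12, and the precursor markers Pdgfra and Olig2 had -0.06 ± 0.06 and 0.08 ± 0.09.

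Tmem252 (chr19:24674008-24682233), a small membrane protein gene, had the largest change among the named genes that passed. Its counts were 120.2, 82.8, 98.3, 103 and 87.5 in vehicle females, 98.3, 155, 104, 108 and 82.3 in vehicle males, 56.2, 41.7, 65.4, 55.1 and 53.6 in lithium females and 40.0, 47.2, 68.8, 45.4 and 35.7 in lithium males. No lithium mouse reached the lowest vehicle mouse, and the fitted mean was 50.6% lower (log2 fold change -1.02 ± 0.21 SE, adjusted p = 0.0154).

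**Figure D1:**
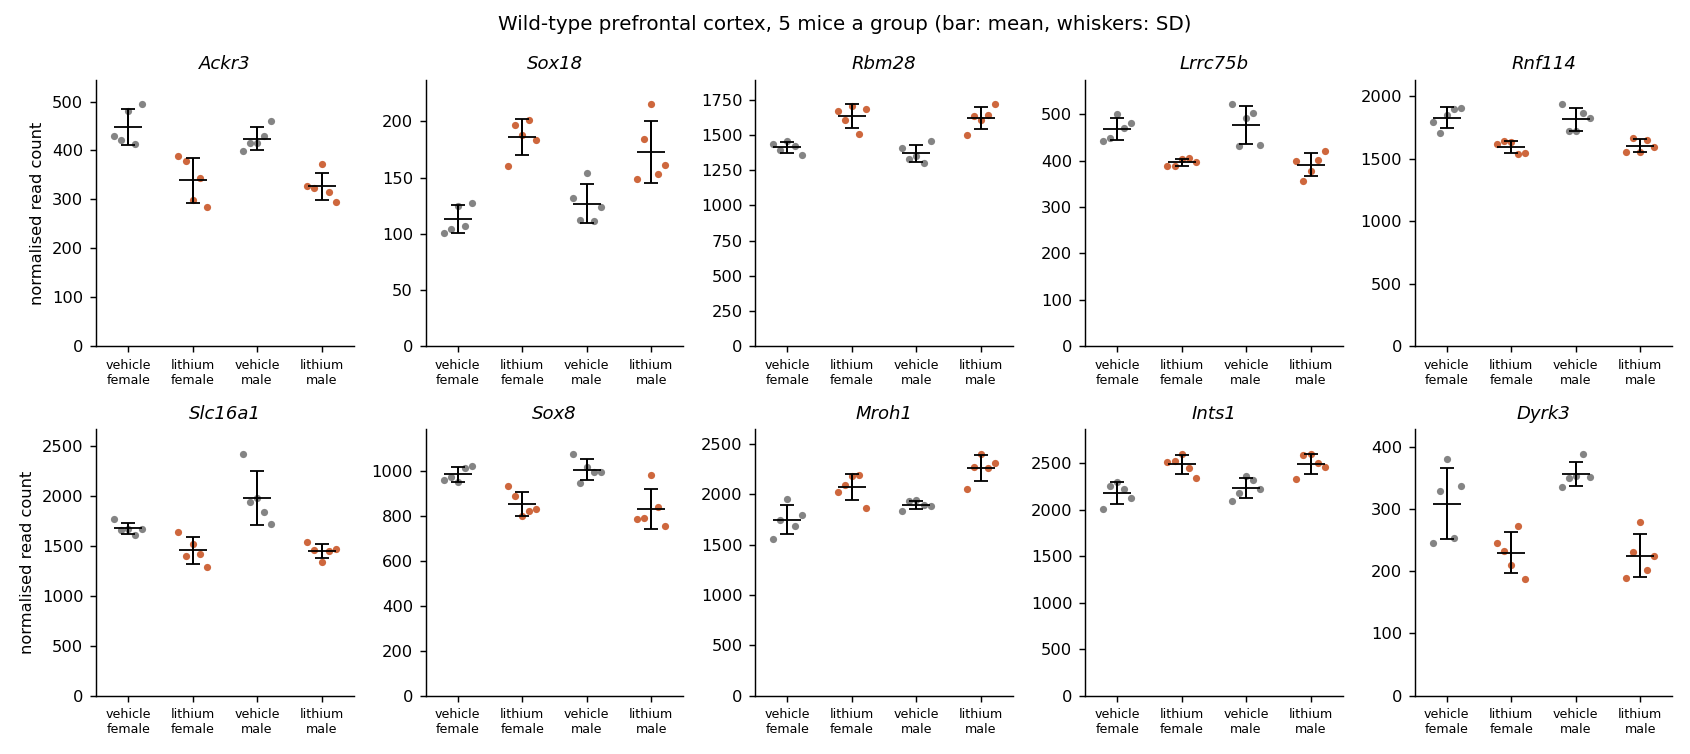
Normalised read count (vertical axis, from 0) of the 10 autosomal genes of smallest p in each wild-type mouse, by treatment and sex (horizontal axis). Points are mice, bars are means and whiskers SDs of 5 mice. Ackr3, Rbm28, Lrrc75b and Rnf114 show no overlap between the 10 lithium and the 10 vehicle mice.

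Genes for nuclear RNA handling were among those that rose. Rbm28 (chr6:29123576-29165006), a nucleolar RNA-binding protein of ribosome assembly, was between 1300.3 and 1459 (median 1403) with vehicle and between 1503 and 1721 (median 1639.8) with lithium, with no overlap and a log2 fold change of 0.23 ± 0.04 (SE, adjusted p = 0.00246). Ints1 (chr5:139751282-139775674), the scaffold subunit of the Integrator complex that cleaves small nuclear RNAs, was between 2004 and 2358 (median 2222) with vehicle and between 2335 and 2603 (median 2506) with lithium, a log2 fold change of 0.17 ± 0.03 (SE, adjusted p = 0.00987). Srrm3, a splicing factor of neuronal microexons, rose by 0.21 ± 0.05 on the log2 scale. Nrde2, a partner of the nuclear exosome, rose by 0.26 ± 0.06. These are single genes: of the 40 nucleolar and ribosome biogenesis genes tested, Rbm28 alone passed, and the nucleolar proteins Ncl and Nop58 had -0.09 ± 0.04 and -0.05 ± 0.03.

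Several regulators of transcription and chromatin passed in one or the other direction. Banp, which binds CpG-rich promoters, rose by 0.32 ± 0.07 on the log2 scale, and the atrophin-family corepressor Rere rose by 0.21 ± 0.05. Suv39h1, a histone methyltransferase of heterochromatin encoded on the X chromosome, was between 728 and 913 (median 849) with vehicle and between 666 and 798 (median 707) with lithium, a log2 fold change of -0.23 ± 0.05 (SE, adjusted p = 0.023). Its paralog Suv39h2 had -0.13 ± 0.06, which did not pass. Phf13, a chromatin reader, fell (-0.29 ± 0.07), and so did the zinc finger gene Zfp189 (-0.62 ± 0.14). Of 36 chromatin and transcription regulators linked to autism, Rere alone passed, with 5 members higher and none lower at an unadjusted p under 0.05, against 3.89% higher and 2.97% lower over all genes. The others were Zmynd8 (0.14), Arid1b (0.07), Chd2 (0.11) and Tcf20 (0.07).

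Among genes of signalling and protein turnover, Dyrk3 (chr1:131127455-131138340), a kinase that controls the dissolution of cytoplasmic condensates, was between 245 and 389 (median 344) with vehicle and between 188 and 278 (median 228) with lithium. Its fitted mean fell by 31.4%, with a log2 fold change of -0.54 ± 0.11 (SE, adjusted p = 0.00987), whereas Dyrk1a, the gene mutated in the other genotype, had -0.03 ± 0.05. Pnck, a calcium/calmodulin-dependent kinase on the X chromosome named here after its values were seen, fell (-0.27 ± 0.06). The ubiquitin ligase Rnf114 (chr2:167492645-167516173) was between 1707 and 1939.7 (median 1837) with vehicle and between 1539 and 1668 (median 1608) with lithium, with no overlap and a log2 fold change of -0.19 ± 0.03 (SE, adjusted p = 0.00618). Tnfaip1, an adaptor of a cullin ubiquitin ligase, fell by 7.58% (-0.11 ± 0.02), again with no overlap. Dnajc27 (chr12:4082583-4110606), a Rab-like GTPase with a chaperone J domain, fell by 7.21%, the smallest change among the genes that passed.

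The remaining genes that passed have roles in the cytoskeleton and organelles or less defined ones. Wipf3, a partner of WASP proteins in actin assembly, rose without overlap (0.28 ± 0.06). Plekhg4, a guanine nucleotide exchange factor, rose by 0.48 ± 0.11, and the microtubule-binding Map10 by 0.40 ± 0.09. Mroh1 (chr15:76380261-76453038), a HEAT-repeat protein, was between 1559 and 1951 (median 1860.3) with vehicle and between 1868 and 2402 (median 2185) with lithium (log2 fold change 0.25 ± 0.05 SE, adjusted p = 0.00651). Lrrc75b (chr10:75550123-75560330), a leucine-rich repeat gene, was between 431 and 522 (median 475) with vehicle and between 356 and 421 (median 398) with lithium (log2 fold change -0.26 ± 0.05 SE, adjusted p = 0.00401), with no overlap. Fndc3b rose by 0.27 ± 0.06. Mterf1b rose by 0.44 ± 0.09, but it has a near-identical copy, Mterf1a, and how reads were split between them is uncertain. A single predicted gene also fell. In all, 8 of the 29 showed no overlap between the 10 lithium and the 10 vehicle mice, against 14 of 17901 genes tested (0.0782%). Exons of 5 of the 29 overlap another measured gene on the opposite strand: Ctnnb1, Mroh1, Rnf114, Sox8 and Wipf3.

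Females and males were then taken apart. In females no gene passed with limma or with edgeR, with 586 genes under an unadjusted p of 0.05 by limma and 564 by edgeR. Sox18 came nearest in females (0.72 ± 0.14 SE, adjusted p = 0.062), followed by Ackr3 (-0.41 ± 0.09 SE, adjusted p = 0.132). In males 2 genes passed (0.0112%): Slc16a1 fell, -0.44 ± 0.09 (SE, adjusted p = 0.0451), and Nrde2 rose, 0.44 ± 0.09 (SE, adjusted p = 0.0451). Neither passed with edgeR. The male count was 0 without any 1 of lithium males 1, 2, 4 and 5 or vehicle males 1, 3 and 4, 1 without vehicle male 2 and 8 without lithium male 3. The corresponding values in females were -0.21 ± 0.09 and 0.09 ± 0.09.

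The difference between the sexes itself passed for no gene by limma or edgeR, and 323 and 319 genes had an unadjusted p under 0.05. Kcnmb2, an auxiliary subunit of calcium-activated potassium channels, had the smallest p. Its log2 fold change was 0.26 in females and -0.33 in males, a difference of 0.59 ± 0.14 (SE, adjusted p = 1). For Slc16a1 the female minus male difference was 0.23 ± 0.12, and for Nrde2 it was -0.34 ± 0.12. For Ackr3 it was -0.03 ± 0.12.

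The heterozygous mice share no animal with the wild-type comparison. There 89 genes passed (0.497%), and 10 of the 29 wild-type genes were among them, 34.5% of the wild-type and 11.2% of the heterozygous calls. Of the 29, 23 had an unadjusted p under 0.05 with the same sign in the heterozygous mice. Over all genes, 5.22% were higher and 5.13% lower there at that threshold. In the other direction, 81 of the 89 heterozygous calls had the same sign in wild-type mice. The share of all genes with matching signs is not given here. Zbtb16 rose in both genotypes, by 0.45 ± 0.10 in wild-type and 0.64 ± 0.10 (SE, adjusted p = 3.40e-04) in heterozygous mice. Wipf3 rose by 0.28 ± 0.06 and 0.37 ± 0.06 (SE, adjusted p = 8.36e-04), Rbm28 by 0.23 ± 0.04 and 0.21 ± 0.04 (SE, adjusted p = 0.0024), and Banp by 0.32 ± 0.07 and 0.32 ± 0.07 (SE, adjusted p = 0.00947). Ackr3 fell in both (-0.39 ± 0.06 and -0.25 ± 0.06 SE, adjusted p = 0.0349).

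Other genes that passed in wild-type mice were near 0 in heterozygous mice. Slc16a1 had -0.09 ± 0.06 there, Suv39h1 -0.02 ± 0.05 and Map10 0.02 ± 0.09. The wild-type minus heterozygous difference was -0.23 ± 0.09 for Slc16a1, -0.21 ± 0.07 for Suv39h1 and 0.38 ± 0.13 for Map10. No gene passed the test of that difference by limma or edgeR, and 497 and 502 genes had an unadjusted p under 0.05. The smallest p belonged to Tfcp2l1, a transcription factor, with -0.04 in wild-type and 0.44 in heterozygous mice (difference -0.48 ± 0.10 SE, adjusted p = 0.362).

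**Figure D2:**
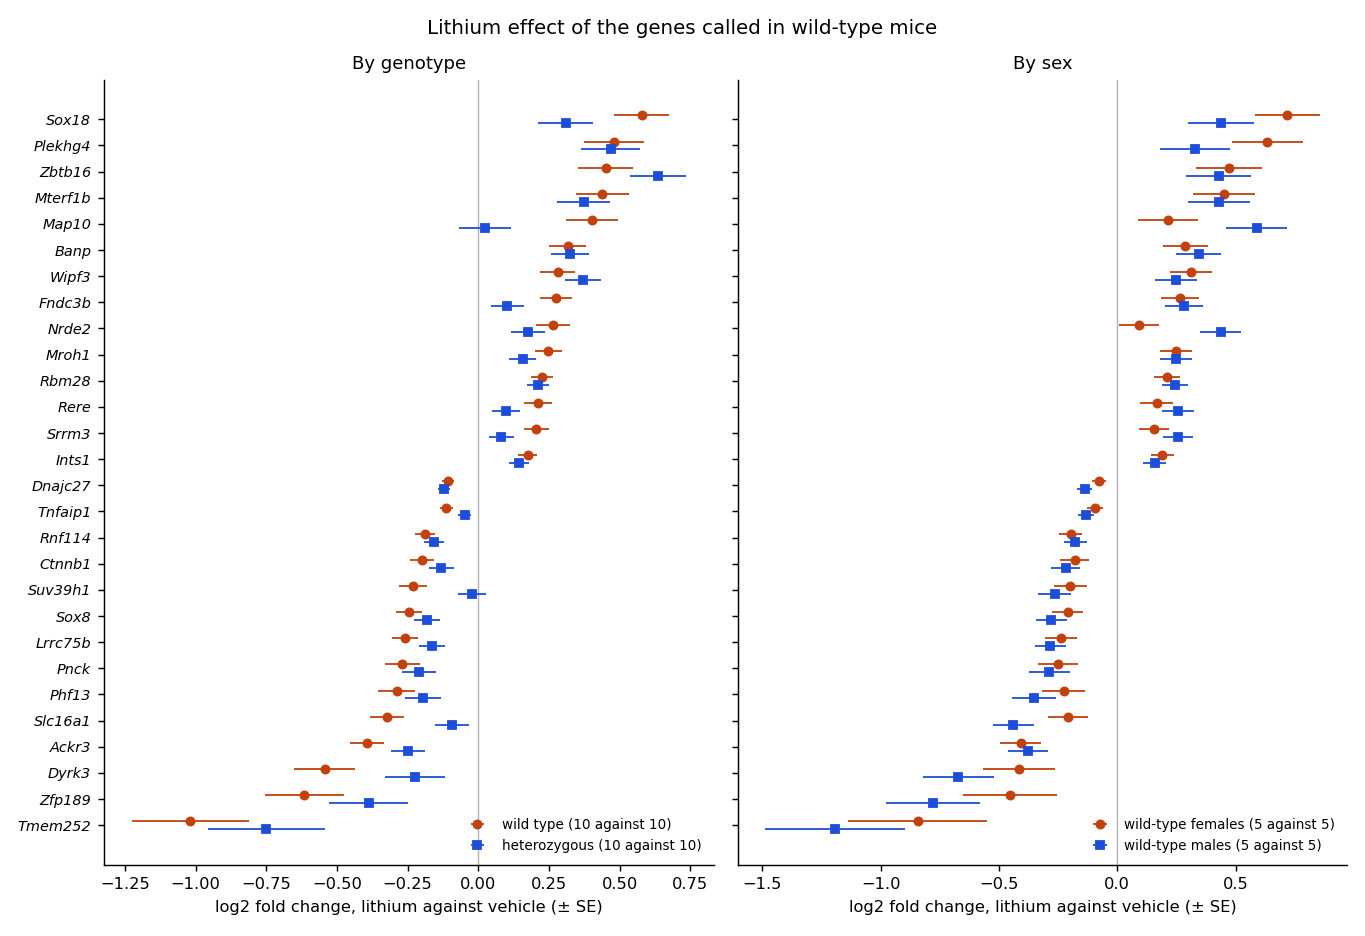
Log2 fold change of lithium against vehicle (horizontal axis, whiskers SE) for 28 of the 29 genes called in wild-type mice (vertical axis), without the predicted gene, by genotype on the left and by sex of wild-type mice on the right. Every gene has the same sign in both genotypes and both sexes, and Map10, Suv39h1 and Slc16a1 lie nearer to 0 in the heterozygous mice. Choosing genes by the mean of the female and male effects favours the same sign in both sexes.

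No tested gene for an enzyme that lithium inhibits passed the test at the RNA level. Of the 11 direct lithium targets listed, 9 were tested and none passed, nor had any an unadjusted p under 0.05. Their log2 fold changes ran from -0.03 to 0.07. Gsk3b had 6282 ± 480.5 normalised counts with vehicle and 6405 ± 282 with lithium (mean ± SD, n = 10 each), a log2 fold change of 0.03 ± 0.05, and Gsk3a had 0.00053 ± 0.04. The inositol monophosphatases Impa1 and Impa2 had 0.03 ± 0.03 and 0.07 ± 0.08. The polyphosphate and nucleotide phosphatases Inpp1, Bpnt1 and Impad1 had 0.0034 ± 0.03, -0.01 ± 0.03 and -0.03 ± 0.05. The phosphoglucomutases Pgm1 and Pgm2 had 0.02 ± 0.04 and -0.02 ± 0.09. Among 43 enzymes of inositol phosphate and phosphoinositide metabolism none passed, and the inositol pyrophosphate kinase Ppip5k1 had the smallest p (0.11 ± 0.03 SE, adjusted p = 0.254).

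Beta-catenin RNA itself fell. Ctnnb1 (chr9:120929216-120960507) had 17756, 19554, 20342, 18311 and 20478 normalised counts in vehicle females and 19478, 18316, 19234, 19047 and 21097 in vehicle males. Lithium females had 16012, 17388, 17577, 17337 and 16719 and lithium males 16566, 16062, 16585, 17413 and 16893. All 10 lithium mice lay below all 10 vehicle mice, and the fitted mean was 12.9% lower, a log2 fold change of -0.20 ± 0.04 (SE, adjusted p = 0.0285). Under quantile normalisation the direction held, but Ctnnb1 did not pass. In heterozygous mice it had -0.13 ± 0.04 (SE, adjusted p = 0.195).

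No other gene of the pathway lists passed. Of 44 genes of the destruction complex and Wnt transduction, 1 fell and none rose. The destruction complex scaffold Apc had -0.17 ± 0.06, the receptor Fzd4 -0.30 ± 0.11, the beta-catenin inhibitor Ctnnbip1 -0.13 ± 0.07 and the ligand Wnt10a 0.23 ± 0.12. Of 23 Wnt target genes none passed. Axin2, a feedback inhibitor and usual readout of the pathway, had 738 ± 39.0 counts with vehicle and 733 ± 34.3 with lithium (mean ± SD, n = 10 each), -0.01 ± 0.04 on the log2 scale. The nuclear partner Lef1 had 0.0019 ± 0.10, the feedback inhibitor Nkd1 -0.13 ± 0.06 and Myc -0.14 ± 0.11.

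Most immediate early genes had lower values on lithium, although none of the 39 tested passed the test across all genes. Their median log2 fold change was -0.24, against 0.0031 over all genes, 5 of 39 were above 0, and 15 were lower and none higher at an unadjusted p under 0.05, against 2.97% lower and 3.89% higher over all genes. Arc, a synaptic capsid-like protein made after activity, had 2462, 3494, 4569.5, 4098 and 4090.2 counts in vehicle females and 5055, 2836, 2545, 3829 and 5492 in vehicle males. With lithium it had 3733, 3452, 1286, 3193 and 1794 in females and 1452, 1665, 4421, 2512 and 1259 in males. The groups overlapped widely, and the log2 fold change was -0.73 ± 0.22 (SE, adjusted p = 0.254).

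Nearest to the threshold were Nab2, a corepressor of EGR factors (-0.33 ± 0.08 SE, adjusted p = 0.0687), and the growth factor-inducible repressor Klf10 (-0.53 ± 0.13 SE, adjusted p = 0.0696). All 10 lithium mice lay below the vehicle mean of their sex for Klf10 and 9 of 10 did for Nab2. Egr2, a zinc finger factor, had -0.68 ± 0.23, the AP-1 subunit Junb -0.50 ± 0.17 and Per1, a clock gene that activity also induces, -0.27 ± 0.08. Fluoxetine, set against the same vehicle mice, gave this list a median of -0.27, and no member passed the test of lithium against fluoxetine. In heterozygous mice the list had a median of -0.39 and 7 of 39 members fell, beside 25 lower and none higher at an unadjusted p under 0.05 (5.13% and 5.22% of all genes). Nab2 had -0.47 ± 0.08 (SE, adjusted p = 8.78e-04) and Junb -0.70 ± 0.17 (SE, adjusted p = 0.0312) there. Each mouse's mean over the list ran from 0.04 to 0.40 in vehicle females, from -0.12 to 0.31 in vehicle males, from -0.40 to 0.16 in lithium females and from -0.37 to 0.08 in lithium males, in log2 units from the mean of all libraries. Blood genes also had higher values on lithium: the 6 tested had a median of 0.37 (0.22 without vehicle male 2) and none passed, their summed counts ran from 5204 to 18579 with vehicle and from 8177 to 23046 with lithium, and their part in the immediate early gene values was not tested.

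Most chaperones of the endoplasmic reticulum had higher values on lithium. These genes belong to the unfolded protein response, in which sensors in the endoplasmic reticulum membrane raise the transcription of chaperones when unfolded proteins build up. None of the 36 genes of the unfolded protein and integrated stress responses passed, but 30 of 36 were above 0, 18 were higher and 1 lower at an unadjusted p under 0.05 (3.89% and 2.97% of all genes), and the median was 0.08. Hspa5, the master chaperone BiP, had 7149, 7413, 8527, 8279 and 7774 counts in vehicle females and 6525, 7576, 6935, 6599 and 9040.4 in vehicle males. Lithium females had 8841, 9743, 7993, 7886 and 9091 and lithium males 8426, 7836, 9209, 9543 and 8732. The groups overlapped, with vehicle male 5 among the highest of the 20 mice, and the log2 fold change was 0.21 ± 0.06 (SE, adjusted p = 0.189).

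Sdf2l1, a cofactor of BiP, had the largest log2 fold change in the list. It had 203, 220.1, 298, 272 and 283 counts in vehicle females, 221, 208, 203, 213 and 301 in vehicle males, 335, 398, 263, 298 and 310.0 in lithium females and 261, 274, 416, 463 and 283 in lithium males. All 10 lithium mice were above the vehicle mean of their sex, and the log2 fold change was 0.43 ± 0.13 (SE, adjusted p = 0.186). The secreted stress protein Creld2 had 0.30 ± 0.08 (SE, adjusted p = 0.108), the co-chaperone Dnajb11 0.14 ± 0.04 (SE, adjusted p = 0.136), the chaperone Hsp90b1 0.15 ± 0.04 (SE, adjusted p = 0.189) and the lectin chaperone Calr 0.18 ± 0.05 (SE, adjusted p = 0.203). In heterozygous mice, where 0.497% of all genes passed, 2 members rose, 1 fell and the median was 0.10. At an unadjusted p under 0.05, 15 were higher and 1 lower there (5.22% and 5.13% of all genes). Hspa5 rose by 0.25 ± 0.06 (SE, adjusted p = 0.0312), and Dnajb2 fell, with -0.22 (adjusted p = 0.00174 by limma). The cytosolic heat shock genes had a median of 0.04 over 20 genes, and none passed. Hspa1a and Hspa1b, near-identical copies whose reads may be split uncertainly, had 0.26 ± 0.10 and 0.41 ± 0.15.

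The chaperone genes are known for a shared promoter element, the ER stress element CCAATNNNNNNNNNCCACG, so their promoters are shown. In the 250 bases upstream of the RefSeq start (GRCm38.p6), searched on both strands, 9 of 33 list members with a promoter in the table held it (27.3%), against 35 of 27025 promoters in all (0.13%). The list was compiled from genes known for this response, so that share is a description. The 4 members with a match and the smallest p follow, 5′ to 3′ in the direction of the gene, with the matches in capitals. Where capitals begin with CGTGG the match lies on the opposite strand.
Creld2 (chr15:88819396-88819645, plus strand): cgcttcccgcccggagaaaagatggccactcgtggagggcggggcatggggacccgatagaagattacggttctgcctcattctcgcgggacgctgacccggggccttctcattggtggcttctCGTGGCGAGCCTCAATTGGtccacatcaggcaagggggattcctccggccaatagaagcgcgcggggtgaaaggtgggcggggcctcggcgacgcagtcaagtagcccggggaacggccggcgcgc
Hsp90b1 (chr10:86705445-86705694, minus strand): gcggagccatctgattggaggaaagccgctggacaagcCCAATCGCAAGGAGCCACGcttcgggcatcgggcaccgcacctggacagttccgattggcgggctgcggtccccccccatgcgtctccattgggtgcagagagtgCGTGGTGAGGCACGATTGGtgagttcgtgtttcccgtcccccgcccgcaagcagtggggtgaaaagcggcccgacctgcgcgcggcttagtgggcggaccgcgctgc
Hspa5 (chr2:34771840-34772089, plus strand): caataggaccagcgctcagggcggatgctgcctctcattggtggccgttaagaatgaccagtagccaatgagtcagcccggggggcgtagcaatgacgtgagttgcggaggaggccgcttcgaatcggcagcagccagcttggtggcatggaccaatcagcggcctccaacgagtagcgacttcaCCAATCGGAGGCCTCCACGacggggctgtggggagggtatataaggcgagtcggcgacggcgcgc
Calr (chr8:84846932-84847181, minus strand): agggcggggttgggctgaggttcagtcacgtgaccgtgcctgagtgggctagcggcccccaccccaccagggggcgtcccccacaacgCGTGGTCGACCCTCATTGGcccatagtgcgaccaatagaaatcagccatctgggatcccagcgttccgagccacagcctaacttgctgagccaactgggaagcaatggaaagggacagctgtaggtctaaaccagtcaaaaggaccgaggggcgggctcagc
The match began 126 bases before the start of Creld2, 65 before that of Hspa5 and 162 before that of Calr. Hsp90b1 held 2 matches, the nearer beginning 107 bases before its start. The cAMP response element TGACGTCA, a motif of activity-induced promoters, was in 4 of 30 immediate early gene promoters (13.3%) and in 1.77% of all, namely in Dusp1, Btg2, Maff and Arl4d.

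**Figure D3:**
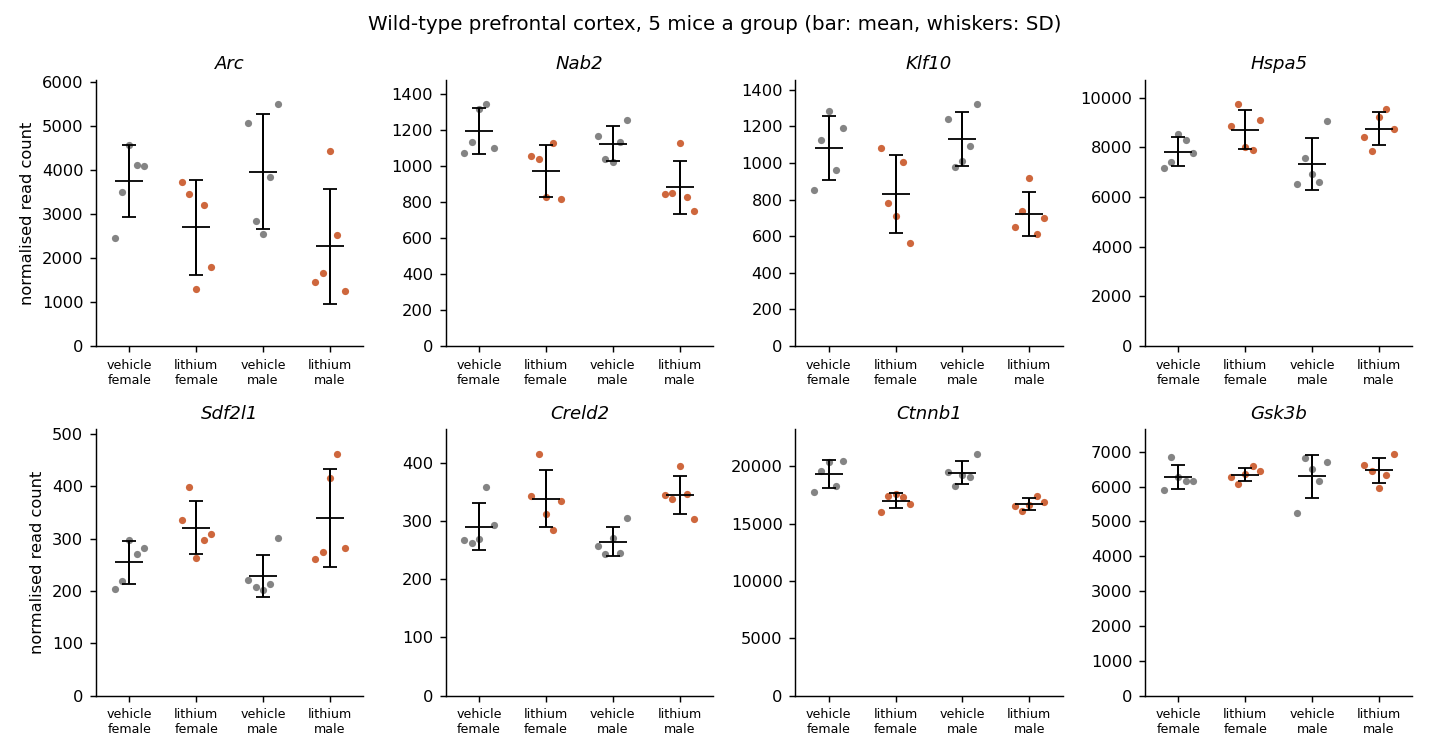
Normalised read count (vertical axis, from 0) of 3 immediate early genes, 3 unfolded protein response genes, Ctnnb1 and Gsk3b in each wild-type mouse, by treatment and sex (horizontal axis). Points are mice, bars are means and whiskers SDs of 5 mice. Ctnnb1 shows no overlap between treatments, Arc and Hspa5 overlap, and so do the values of Gsk3b.

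Genes of oxidative phosphorylation, the mitochondrial chain that makes ATP, had slightly higher values on lithium. Of 75 tested none passed, 72 of 75 were above 0 and 11 were higher and none lower at an unadjusted p under 0.05 (3.89% and 2.97% of all genes), with a median log2 fold change of 0.04. The ATP synthase subunit Atp5e had 0.17 ± 0.05 (SE, adjusted p = 0.136) and the cytochrome oxidase subunit Cox7b 0.11 ± 0.03 (SE, adjusted p = 0.189). The mean of the list in each mouse overlapped between groups, running from -0.09 to 0.15 in vehicle females, from -0.03 to 0.03 in vehicle males, from -0.02 to 0.13 in lithium females and from -0.08 to 0.13 in lithium males. Over all genes 51.9% were above 0. The cytosolic ribosomal proteins, a list of like size, had 38 of 79 above 0 and a median of -0.00048.

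**Figure D4:**
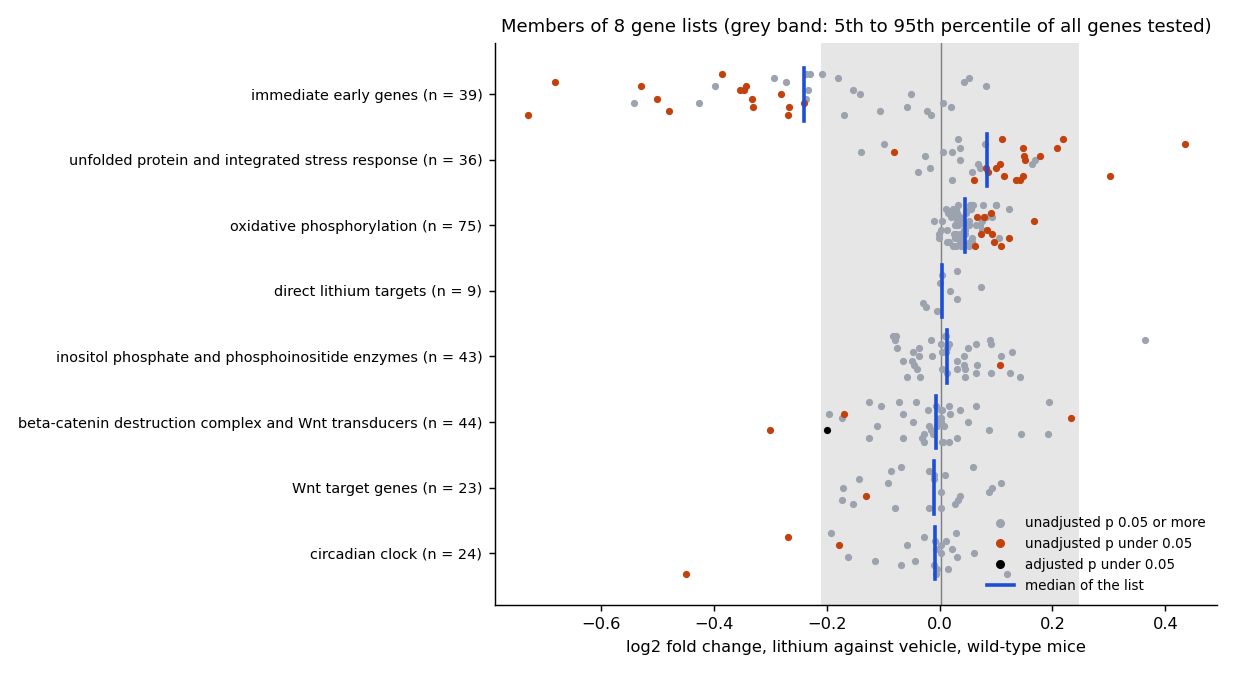
Log2 fold change of lithium against vehicle in wild-type mice (horizontal axis) for each tested member of 8 gene lists (rows). Points are coloured by p, blue bars are medians and the grey band spans the 5th to 95th percentile of all genes (-0.21 to 0.25). Most immediate early genes lie left of 0 and most unfolded protein and oxidative phosphorylation genes right of it, and Ctnnb1 alone has an adjusted p under 0.05.

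Among glucocorticoid-responsive genes 1 of 35 passed. Zbtb16 (chr9:48654297-48836222) rose: it was between 601 and 1102 (median 749.5) with vehicle and between 878 and 1314 (median 1054) with lithium, the groups overlapped and the log2 fold change was 0.45 ± 0.10 (SE, adjusted p = 0.0285). The other 34 members did not pass, 9 of them were lower and none higher at an unadjusted p under 0.05 (2.97% and 3.89% of all genes), and the list's median was -0.05. That median was -0.03 without vehicle female 1 and -0.09 without vehicle male 5. The stress-induced growth inhibitor Ddit4 had -0.35 ± 0.12, the thioredoxin inhibitor Txnip -0.22 ± 0.09 and the transcription factor Klf15 -0.17 ± 0.07. Of 30 genes of cholesterol synthesis and sterol handling none passed and 4 were lower at an unadjusted p under 0.05 (2.97% of all genes), with the sterol sensor Insig1 at -0.22 ± 0.08. Of 24 circadian clock genes none passed and 3 were lower at an unadjusted p under 0.05 (2.97% of all genes), with Per1, which is also in the immediate early and glucocorticoid lists, of smallest p. CACGTG, the clock's binding motif, was in 5 of 19 clock gene promoters (26.3%) and in 6.86% of all.

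In the lists for the cell types of the cortex, medians in wild-type mice were -0.01 for excitatory neurons, 0.01 for interneurons, -0.03 for astrocytes, -0.06 for microglia and -0.12 for meningeal cells (-0.05 without vehicle female 1), with no member passing in these 5 lists. Of the members tested, 6 of 25 astrocyte, 4 of 25 microglial and 1 of 20 meningeal markers were above 0, against 51.9% of all genes. The sexes differed in these medians. Astrocyte markers had 0.02 in females and -0.09 in males, microglial markers 0.05 and -0.18, and meningeal markers -0.16 and -0.02. Each mouse's mean over the microglial list, in log2 units, ran from -0.03 to 0.44 in vehicle males (median 0.09) and from -0.07 to 0.08 in lithium males. Vehicle male 1 had the highest counts of the vehicle males for Ctss (2158), Mpeg1 (1164) and Siglech (546). For myelinating oligodendrocytes the median was 0.02 in wild-type but -0.35 in heterozygous mice. There 2 of 29 fell and 22 were lower at an unadjusted p under 0.05, against 5.13% of all genes. In the test of the difference between the genotypes 11 of the 29 had an unadjusted p under 0.05, against 497 of all 17901 genes, and none passed. Ppp1r14a, a phosphatase inhibitor of myelinating cells, had 0.42 ± 0.22 in wild-type and -0.65 ± 0.22 in heterozygous mice. Its lowest count among the 20 wild-type mice was that of vehicle male 1 (30.7). With the oligodendrocyte marker level as a covariate, 30 genes were called in wild-type mice, all 29 among them, and 50 in heterozygous mice.

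**Figure D5:**
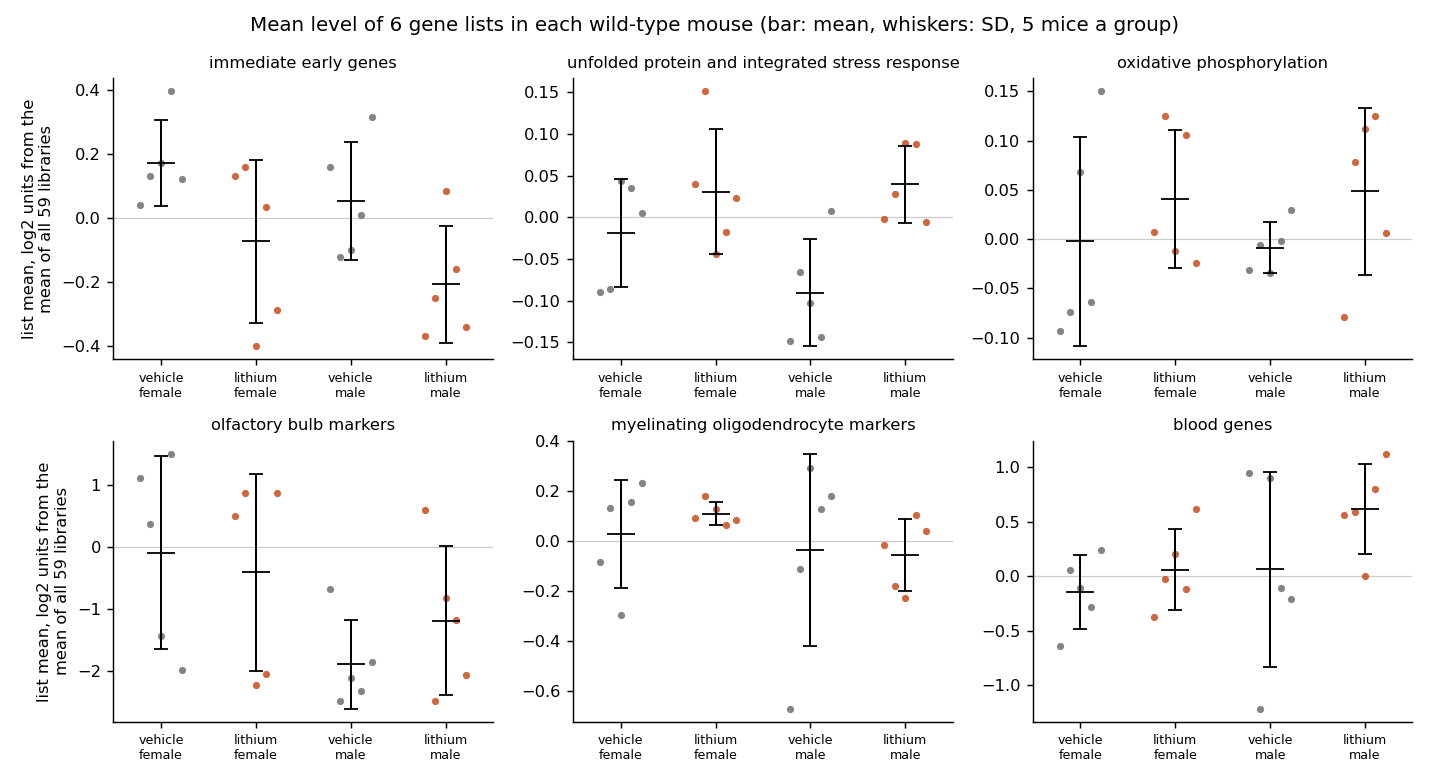
Mean of 6 gene lists in each wild-type mouse (vertical axis, log2 units from the mean of all 59 libraries), by treatment and sex (horizontal axis). Points are mice, bars are means and whiskers SDs of 5 mice. The groups overlap in every list, and olfactory bulb markers spread over several log2 units within each group.

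Lithium was lastly set against fluoxetine in wild-type mice, which tests whether the genes moved more with one drug. Directly compared, 28 genes passed (0.156%), 18 higher and 10 lower on lithium. That count was 2427 with only the 2 groups, 362 without the 2 heterozygous fluoxetine males and 11 with the olfactory bulb covariate, and the cause was not tested. Olfactory bulb markers had a median log2 fold change of 1.74 with fluoxetine and 0.16 with lithium, each against the same vehicle mice. Whether the genes named below passed with that covariate is not shown here. The genes of smallest p were Sesn3, a stress-induced inhibitor of growth signalling (0.23 ± 0.04 SE, adjusted p = 0.00127), and Castor2, an arginine sensor homologue (0.24 ± 0.04 SE, adjusted p = 0.00127). Next came the immunoproteasome activator Psme1 (-0.29 ± 0.05 SE, adjusted p = 0.00156) and the sterol carrier Stard4 (0.33 ± 0.06 SE, adjusted p = 0.00575).

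Of the 29 lithium genes, 3 differed between the drugs: Mroh1 (0.29 ± 0.05 SE, adjusted p = 0.00156), Pnck (-0.35 ± 0.06 SE, adjusted p = 0.00397) and Ints1 (0.17 ± 0.04 SE, adjusted p = 0.0259). The comparisons of each drug with vehicle share the vehicle mice, so their values are given side by side only. Mroh1 had 0.25 ± 0.05 with lithium and -0.04 ± 0.05 with fluoxetine, Ints1 0.17 ± 0.03 and 0.01 ± 0.04, and Pnck -0.27 ± 0.06 and 0.08 ± 0.06. Slc16a1 had -0.32 ± 0.06 and -0.37 ± 0.06, Sox18 0.58 ± 0.10 and 0.47 ± 0.10, and Sox8 -0.24 ± 0.05 and -0.25 ± 0.05. The lithium minus fluoxetine differences of those 3 were 0.05 ± 0.06, 0.10 ± 0.10 and 0.01 ± 0.05, and none passed. For Ctnnb1 the values were -0.20 ± 0.04 and -0.04 ± 0.04, with a difference of -0.15 ± 0.04 (SE, adjusted p = 0.105).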

How the data were processed

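The deposited table gives 1 normalised value per gene and library for 18088 genes and 59 libraries. Its values are signal in the sense of counts that the authors divided by a factor per library, since each value times a constant per library gave whole reads. Per the submitters' processing notes the tools were Salmon 0.11.2, R 3.6.0 and DESeq2 1.19.11 with the GRCm38 genome. Libraries were made with a strand-specific poly(A) kit, per the labels' protocols. Library type settings are not given in the sources used here. Ensembl identifiers were matched to GENCODE M21 for symbols and coordinates, and 11 had no symbol.

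Genes with a value of at least 10 in at least 4 libraries (17901) were tested on log2(value + 1) with limma 3.58.1 in R 4.3.3. The fit had 12 group means (genotype by treatment by sex), an intensity trend, 47 residual degrees of freedom and Benjamini-Hochberg adjustment over all genes. Folds on this scale understate changes of low genes. The lithium effect is the mean of the female and male effects. Percent changes of fitted means were taken from that log2 effect and are not ratios of mean counts. The fit uses all 59 libraries to estimate the spread. Values for fluoxetine and heterozygous mice come from the same fit. edgeR 4.0.16 was run on the recovered reads as an alternative. Other alternatives were normalisation (TMM, quantile), the filter, the pseudocount, array weights, covariates, a replicate block and leaving out each library. On simulated data with 17901 genes, the wild-type lithium test recovered 77 of 100 genes changed 1.25-fold and 97 of 100 changed 1.5-fold, with 11 false calls. The changed genes were not drawn from the lowest counts, and each count was drawn independently. The simulation thus lacked differences between libraries that many genes share, such as olfactory bulb content, and its rates may not hold for these data.

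Named genes were every called gene, the lithium targets, up to 6 genes of smallest p per described list and per difference test, with predicted genes counted only. The gene lists and the comparison were chosen with earlier results of these data known. Promoters came from RefSeq. Replicates were compared by chi-square on counts, which gave at least 3.17 per gene, so no pair agreed within sampling noise.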

Additional observations from a re-analysis of the deposited data

Results flagged for a closer look

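Sets of 5 values, each a gene or a list mean in 1 group of 5 mice, were examined by Dixon's criterion. In 4 of 200 such sets (2.0%), 1 mouse stood apart from the other 4 of its group. Chance sets 1 mouse apart in about 1 in 20 sets under this criterion. All sets come from the same 20 mice and are not independent, so that rate is only a rough guide. Vehicle male 2 had 2906 normalised counts of the corepressor gene Rere, below the other 4 vehicle males. Vehicle female 2 had 2327 counts of the kinase gene Dyrk1a, above the other 4 vehicle females. Vehicle female 3 had a mean of 0.15 over the circadian clock genes, in log2 units from the mean of all libraries, above the other 4. Vehicle male 5 had a mean of -0.14 over the glucocorticoid-responsive genes, below the other 4.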

How the results depend on the processing

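The 29 genes called for lithium in wild-type mice kept their direction without each of the 20 libraries in turn. Their count was 209 with array weights, 67 with the olfactory bulb covariate, 84 without the 2 heterozygous fluoxetine males and 61 in a fit of only the groups compared, and 13 to 33 with 1 library left out. It was 25 with edgeR, 29 with TMM and 26 with quantile normalisation. In females the count of 0 became 1 with a filter at 100, 1 with the oligodendrocyte covariate, 2 without the 2 heterozygous fluoxetine males and 0 to 2 with 1 library left out (2 without lithium female 1). In males the count of 2 became 0 with quantile normalisation, with edgeR and in the fit of only the groups compared, 5 with either the olfactory bulb or the striatal covariate, 33 without the 2 heterozygous fluoxetine males, 126 with array weights and 0 to 8 with 1 library left out. The difference between the sexes gave 0 to 0 calls with 1 library left out, and the difference between the genotypes 0 to 1 (1 without heterozygous lithium male 2). In heterozygous mice the count of 89 became 1052 with array weights, 162 with the olfactory bulb covariate, 50 with the oligodendrocyte covariate, 230 without the 2 heterozygous fluoxetine males and 32 in the fit of only the groups compared, and ran from 45 (without vehicle male 4) to 156 (without vehicle male 1). For lithium against fluoxetine the count of 28 became 50 with a filter at 100, 3238 with array weights, 11 with the olfactory bulb and 43 with the striatal covariate, 362 without the 2 heterozygous fluoxetine males and 2427 in the fit of only the groups compared, and ran from 9 (without fluoxetine female 1, fluoxetine male 4, lithium male 2 or lithium male 4) to 103 (without fluoxetine female 2). The cause was not tested. Genes near 0 changed sign. Gsk3a had -0.0021 with TMM, -0.0081 with quantile normalisation, -0.021 with the striatal covariate and -0.0030 with edgeR. Gsk3b had -0.0026 and Inpp1 -0.0044 with array weights, and Lef1 had -0.00074 with TMM, -0.012 with array weights, -0.0018 with the olfactory bulb covariate and -0.015 with edgeR. With 1 library left out the log2 fold change ran from -0.026 to 0.0047 for Axin2, -0.026 to 0.012 for Bpnt1, -0.015 to 0.020 for Gsk3a, -0.00090 to 0.047 for Gsk3b, -0.0012 to 0.0088 for Inpp1, -0.046 to 0.053 for Lef1 and -0.058 to 0.0095 for Pgm2. The median of the olfactory bulb markers ran from -0.08 to 0.40 over all settings, while those of the immediate early, unfolded protein and oxidative phosphorylation lists kept their sign. A replicate block gave 33 calls in wild-type mice, all 29 among them. Replicate numbers gave no clear pairing of the mice: the deviations of lithium and vehicle mice with the same number correlated from -0.30 to 0.20, and most mice correlated best with another number. Lithium males 1, 2 and 5 correlated best with the vehicle male of their own number, so the check cannot exclude pairing.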

Other observations

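The osmotic, ion transport, presynaptic, interneuron, excitatory postsynaptic and neurotrophin lists held no gene that passed the test in wild-type mice, and values follow as log2 fold changes ± SE. Among 13 osmotic response genes, Trpv4, a cation channel that senses swelling, had 25.0 ± 9.33 normalised counts with vehicle and 40.3 ± 12.2 with lithium (mean ± SD, n = 10 each), 0.70 ± 0.20 (adjusted p = 0.160 by limma), against 0.18 ± 0.20 in heterozygous mice. Of 33 sodium and potassium transport genes 22 were above 0, with a median of 0.04. The sodium pump beta subunit Atp1b1 had 0.10 ± 0.04. Among 37 presynaptic release genes, the vesicle protein Sv2a had 0.10 ± 0.03 and the fusion clamp Cplx1 0.11 ± 0.04, while the active zone proteins Rims2 and Rims3 had -0.17 ± 0.05 and -0.16 ± 0.08.

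Pvalb, the calcium buffer of fast-spiking interneurons, had 584 ± 105 counts with vehicle and 765 ± 109.8 with lithium (mean ± SD, n = 10 each), 0.40 ± 0.15, and 0.41 in heterozygous mice. Crh, the corticotropin-releasing hormone made by other interneurons, had -0.26 ± 0.09 in wild-type and -0.38 in heterozygous mice. Of 21 genes of MAP kinase feedback and the DYRK family, Dyrk3 alone passed. At an unadjusted p under 0.05, 4 were lower, Dyrk3 included, and none higher (2.97% and 3.89% of all genes). The receptor kinase inhibitor Spry4 had -0.21 ± 0.08 and the phosphatases Dusp1, which is also in the immediate early list, and Dusp7 had -0.35 ± 0.16 and -0.11 ± 0.05. Of 26 ubiquitin ligase and adaptor genes Rnf114 and Tnfaip1 passed. At an unadjusted p under 0.05, 4 were lower, these included, and none higher (2.97% and 3.89% of all genes), with Smurf2 at -0.12 ± 0.04 and the scaffold Cul1 at -0.06 ± 0.03. None of 38 excitatory postsynaptic genes and none of 14 neurotrophin genes had an unadjusted p under 0.05.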
